A study of Mus musculus with 2 samples.

Results

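The regions described here are peaks listed both for an ALKBH5-FLAG CUT&Tag library and for an IgG library, with a summit more than 1 kb from both ends of every protein-coding gene. They numbered 847 of the 12327 ALKBH5 peaks on chromosomes 1 to 19, X and Y. Of those 12327 peaks 1832 (14.9%) shared at least 1 bp with an IgG peak. Away from gene ends 847 of 6288 did so (13.5%). The regions were selected on the peak calls of both libraries and on position, so these shares are set by that choice and are given as a description. CUT&Tag uses an antibody to bring the transposase Tn5 to chromatin and sequences the DNA that Tn5 tags. Both libraries came from Hepa1-6 cells, a mouse hepatoma line grown in DMEM with FBS and infected overnight with the ad-FLAG-ALKBH5 adenovirus, per the labels' protocols, so the IgG cells carried the virus too. For the IgG sample the treatment tag reads ALKBH6-FLAG. The series design speaks of primary hepatocytes, although Hepa1-6 is the cell line of both samples. An uninfected library was not analysed here. There was 1 library per group, so every difference below is between these libraries, without a replicate check or a test. The intervals given cover counting error only.

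ALKBH5 is an enzyme that removes the N6-methyl mark from adenosine in RNA, and the series asked whether it binds DNA. A non-specific IgG in the same assay measures where Tn5 tags DNA without a specific antibody. As background, untargeted Tn5 is known to favour open chromatin such as active promoters, and reads from repeated DNA are known to gather in excess at some places of a genome assembly.

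The peaks were of different kinds by position. Of the 847, 410 (48.4%, 95% exact interval 45.0 to 51.8) had a summit within the limits of a protein-coding gene, 94 (11.1%) within a gene of another kind only, and 343 (40.5%) between genes. The gene ends used in the choice are the outer limits of each gene, so a start used by a shorter transcript can lie inside a gene. RefSeq start windows, the 300 bases from 250 before to 50 after a transcript start, overlapped 115 of the 811 peaks on chromosomes that the window table covers (14.2%, 11.9 to 16.8). Over all ALKBH5 peaks on these chromosomes the share was 39.7%, over ALKBH5 peaks away from gene ends without an IgG peak it was 10.8% (9.96 to 11.7), and over shared peaks at gene ends it was 77.3% (74.5 to 79.9). The 847 are thus away from the outer ends of coding genes, but not all are away from annotated transcript starts. Small RNA genes, widened by 200 bp on each side, were met by 18 peaks, the stretches of chromosome outside the first and last protein-coding gene by 30, and pseudogenes with none of these features by 17.

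Start windows of 6 genes are printed to show the sequence under such peaks, the 4 with the highest ALKBH5 fold enrichment and 2 from the gene lists. They read 5′ to 3′ on the strand of the gene, from RefSeq, build GRCm38.p6. Capitals mark CCAAT (the letters bound by NF-Y), GGGCGG (SP and KLF factors) and TGANTCA (AP-1) on either strand. The choice of these 6 was made after their values were seen.
Gm41603 (chr17:55932148-55932447, minus strand): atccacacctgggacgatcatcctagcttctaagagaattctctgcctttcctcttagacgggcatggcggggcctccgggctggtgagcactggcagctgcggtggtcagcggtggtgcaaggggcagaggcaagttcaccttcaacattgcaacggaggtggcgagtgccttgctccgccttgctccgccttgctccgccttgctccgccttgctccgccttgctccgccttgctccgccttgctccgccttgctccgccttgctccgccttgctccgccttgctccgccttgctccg
Mesd (chr7:83892016-83892315, plus strand): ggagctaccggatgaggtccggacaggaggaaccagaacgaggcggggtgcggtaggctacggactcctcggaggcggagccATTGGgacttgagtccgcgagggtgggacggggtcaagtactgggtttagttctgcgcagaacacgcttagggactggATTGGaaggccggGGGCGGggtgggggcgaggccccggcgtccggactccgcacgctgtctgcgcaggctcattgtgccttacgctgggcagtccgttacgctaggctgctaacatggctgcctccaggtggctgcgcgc
Zfp119b (chr17:55945210-55945509, minus strand): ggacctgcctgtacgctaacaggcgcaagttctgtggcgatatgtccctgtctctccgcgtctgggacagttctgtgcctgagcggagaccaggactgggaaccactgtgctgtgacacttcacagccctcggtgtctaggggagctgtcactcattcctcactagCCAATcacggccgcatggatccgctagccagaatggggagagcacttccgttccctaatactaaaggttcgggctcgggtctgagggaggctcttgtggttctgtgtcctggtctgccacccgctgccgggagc
Lrif1 (chr3:106721432-106721731, plus strand): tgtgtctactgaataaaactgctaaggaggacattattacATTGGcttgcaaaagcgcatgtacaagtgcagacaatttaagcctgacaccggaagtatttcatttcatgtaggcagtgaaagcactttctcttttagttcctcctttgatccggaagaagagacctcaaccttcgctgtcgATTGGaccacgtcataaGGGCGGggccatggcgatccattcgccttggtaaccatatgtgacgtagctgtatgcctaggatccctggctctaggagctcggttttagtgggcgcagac
Insig2 (chr1:121327629-121327928, minus strand): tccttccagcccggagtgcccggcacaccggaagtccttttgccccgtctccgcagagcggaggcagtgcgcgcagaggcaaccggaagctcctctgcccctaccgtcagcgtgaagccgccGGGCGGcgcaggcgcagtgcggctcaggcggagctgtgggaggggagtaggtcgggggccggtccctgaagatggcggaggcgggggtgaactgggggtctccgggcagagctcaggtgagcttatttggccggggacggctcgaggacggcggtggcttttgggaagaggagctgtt
Cdkn1a (chr17:29093519-29093818, plus strand): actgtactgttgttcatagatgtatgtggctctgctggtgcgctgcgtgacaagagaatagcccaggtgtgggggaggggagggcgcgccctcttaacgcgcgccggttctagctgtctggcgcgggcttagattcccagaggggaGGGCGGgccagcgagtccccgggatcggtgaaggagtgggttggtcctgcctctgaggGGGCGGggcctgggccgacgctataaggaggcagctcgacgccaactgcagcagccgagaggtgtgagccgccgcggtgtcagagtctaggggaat

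The start windows under these peaks were rich in GC and CpG, as were those under other ALKBH5 peaks. The 149 windows met by the 115 peaks had a median GC content of 65.7% and a median of 26 CpG, where the 32817 windows of the table had 52.7% and 7. Windows under shared peaks at gene ends, 1067 in number, had 64.0% and 25. The 5030 under ALKBH5 peaks without an IgG peak had 63.2% and 24, and all 21230 windows of protein-coding genes 56.3% and 13. GGGCGG stood in 113 of the 149 windows (75.8%, 68.2 to 82.5), in 78.6% of the windows under shared gene-end peaks and in 35.6% of all windows, counting both strands. Over the windows of protein-coding genes its share was 46.2%. CCAAT stood in 32.2% (24.8 to 40.4) of the 149, in 46.3% (43.3 to 49.3) of those under shared gene-end peaks and in 37.4% of all. TGANTCA stood in 5.37% of the 149, in 4.50% of those under shared gene-end peaks and in 7.81% of all. TGTTTAC, letters bound by FOX factors, stood in 1 of the 149 (0.671%), in 1.97% of those under shared gene-end peaks and in 3.65% of all. The E-box letters CANNTG stood in 54.4% of the 149, in 55.9% of the windows under shared gene-end peaks and in 72.3% of all. The NRF1 motif stood in 2 of the 149 (1.34%), in 2.91% of those under shared gene-end peaks and in 0.966% of all. In the 5030 windows GGGCGG stood in 73.2%, CCAAT in 41.2%, TGANTCA in 4.10%, TGTTTAC in 2.39%, CANNTG in 59.3% and the NRF1 motif in 2.84%. These are matches of letters in a window, and windows of 1 gene can overlap. The Gm41603 window printed above held 13 copies of a 10-base unit, GCCTTGCTCC, and was the only window of the table with 2 copies in a row.

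At these starts the ALKBH5 pileup exceeded the IgG pileup in every peak, by differing amounts. Pileups are compared as listed and the depth of the libraries is unknown, so these differences do not measure enrichment over IgG. Pileup, the number of fragments stacked at a summit, ran from 5 to 49 in the ALKBH5 list, with a median of 17, and from 2 to 16 in the IgG list, with a median of 6. Fold enrichment, the authors' ratio of pileup to local background, had a median of 7.44 for ALKBH5 (95% interval of the median 6.88 to 7.93) and 5.24 for IgG (5.08 to 5.59). The IgG pileup ran up to 0.833 of the ALKBH5 pileup, and the IgG fold was the higher in 21 of the 115 (18.3%). Both medians of fold lay close to those of shared peaks at gene ends, 7.37 and 5.23. In no peak of the 115 did the IgG pileup reach the ALKBH5 pileup, which allows a share of up to 3.16%. The ALKBH5 summit lay within 250 bp of the nearest RefSeq start in 85 of the 115 (73.9%), at a median distance of 112 bp, and upstream of it in 71. The IgG summit lay within 250 bp in 77.

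**Figure D1:**
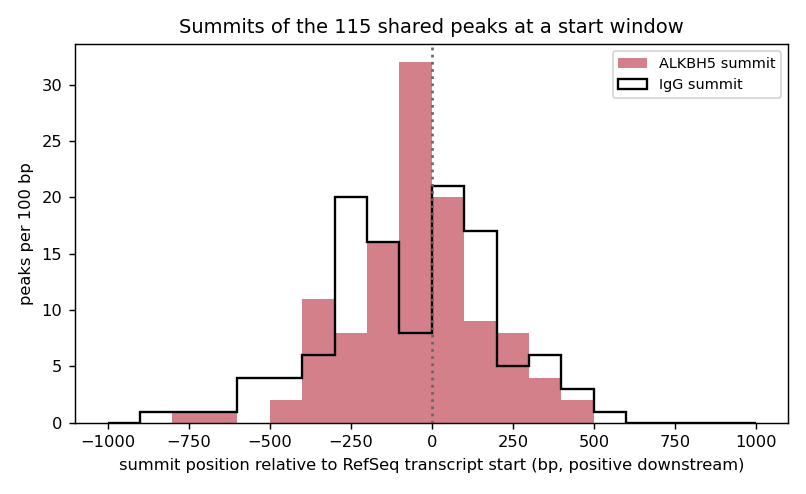
Number of shared peaks away from gene ends per 100 bp of distance from the summit to the nearest RefSeq transcript start, for the 115 peaks that overlap a start window, with ALKBH5 summits filled and the paired IgG summits outlined. Most ALKBH5 summits, 85 of 115, lie within 250 bp of the start, and the peak at Mir22hg, 1440 bp downstream for ALKBH5, lies outside the plot.

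The starts with the highest ALKBH5 fold, and others with known roles, are given one by one. At Mesd, which encodes a chaperone for LDL receptor-related proteins, the pileup was 24 in ALKBH5 and 8 in IgG (folds 10.9 and 7.07), and the start used lies 8400 bp inside the gene. Zfp119b, a zinc finger gene, had 21 and 3 fragments (10.8 and 3.49) at a start 10974 bp inside it. Lrif1, which encodes a nuclear receptor-interacting factor, had 23 and 6 (10.7 and 5.69). The IgG pileup was below the ALKBH5 pileup at each of these 3 starts, by factors that ran from 0.143 to 0.333 of it. Tef, which encodes a PAR bZIP transcription factor of circadian output, had pileups of 38 and 8 (folds 10.3 and 5.99). Lmna, the gene of the A-type lamins of the nuclear envelope, had 32 and 11 (9.76 and 7.98). Sp2, itself a factor of the SP family, had 23 and 4 (8.11 and 3.96). The histone deacetylase genes Hdac4 and Hdac7 had 22 and 8 and 23 and 9 fragments. Of genes of lipid handling, Lipe, which encodes hormone-sensitive lipase, had 17 and 6 (8.33 and 5.99), and Slc27a1, a fatty acid transporter gene, 24 and 7 (7.44 and 6.39). Among long noncoding RNAs, Snhg16 had 20 and 7 (9.55 and 6.67), and the peak at Mir22hg, the host gene of miR-22, was 1965 bp wide with 25 and 10 (4.63 and 5.66). The genes of this paragraph were named after their values were seen.

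Among the 847, the balance between the libraries was different away from transcript starts. Over all 847 peaks the median pileup was 13 for ALKBH5 (interquartile range 8 to 21) and 7 for IgG (5 to 12), and the median ratio of IgG to ALKBH5 pileup was 0.571 (0.536 to 0.625). It was 0.353 in the 115 peaks at a start window, 0.647 in the other 732, and 0.36 (0.353 to 0.375) in shared peaks at gene ends. The 251 shared gene-end peaks without a start window had 0.375 (0.357 to 0.389), so the higher ratio was not seen in them. The 732 and the 251 include peaks on chromosome 18, which has no listed windows. The IgG pileup was at least the ALKBH5 pileup in 206 of the 847 peaks (24.3%, 21.5 to 27.4), in 15 of 985 shared peaks at gene ends (1.52%, 0.855 to 2.50) and in 12.1% of all shared peaks. The IgG fold was the higher in 376 of the 847 (44.4%, 41.0 to 47.8), in 13.9% (11.8 to 16.2) at gene ends and in 28.0% of all shared peaks. The 44.4% with the higher IgG fold depends on the peaks admitted. It was 73.3% with an IgG −log10 q of 5 or more and 56.5% where 50% of each peak had to be shared. Neither library's read total is given in the sources used here, so a ratio has no absolute meaning. The part of depth in these shares was not tested.

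**Figure D2:**
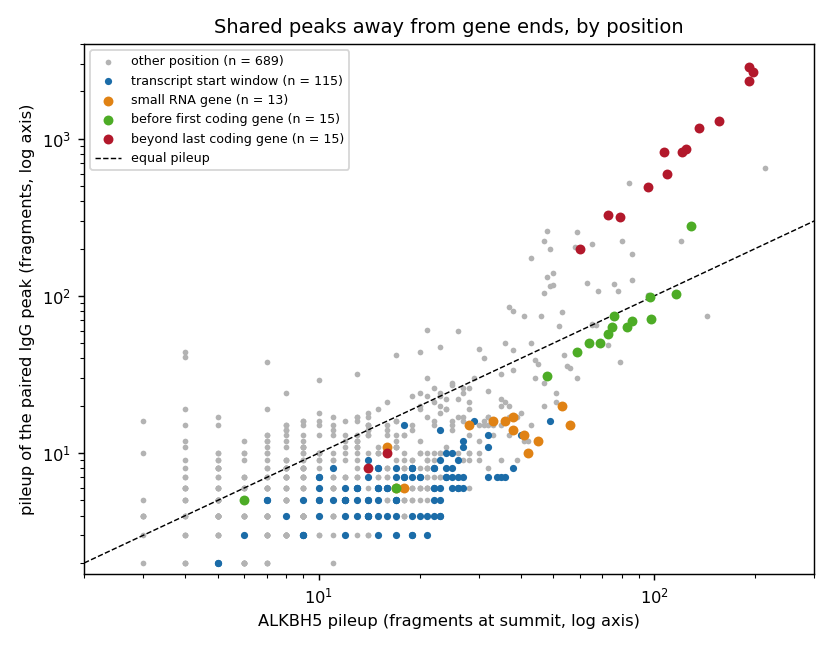
Pileup of each of the 847 shared peaks away from gene ends (horizontal, fragments at the summit, log axis) against that of the paired IgG peak (vertical, log axis), coloured by position, with a dashed line at equal pileup. All 115 peaks at a transcript start window lie below the line, and 13 of the 15 peaks beyond the last protein-coding gene lie above it.

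The difference from gene ends was present at each height of the ALKBH5 peak. Among peaks with an ALKBH5 pileup of 3 to 9, IgG reached it in 39.8% (33.9 to 45.8) of 274 away from gene ends and in 6.15% (2.69 to 11.8) of 130 at gene ends. At 10 to 19 the shares were 9.85% (6.83 to 13.6) and 1.17% (0.432 to 2.54). At 20 to 39 they were 12.1% (7.56 to 18.1) of 165 and 0 of 320, which allows up to 1.15%. At 40 or more they were 54.2% (42.9 to 65.2) of 83 and 4.17% (0.105 to 21.1) of 24. Low peaks differ by few fragments, and a listed IgG peak had at least 2. Paired summits lay a median of 107 bp apart (99 to 115), 138 bp at gene ends, and were within 200 bp of each other in 682 peaks (80.5%). The IgG peak lay wholly inside the ALKBH5 peak in 495 cases. Over all 847 the median width was 273 bp for IgG and 497 bp for ALKBH5. Pileups in the libraries had a Spearman rho of 0.57 over the 847 peaks, which share their 2 libraries, and 0.651 over the shared peaks at gene ends.

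**Figure D3:**
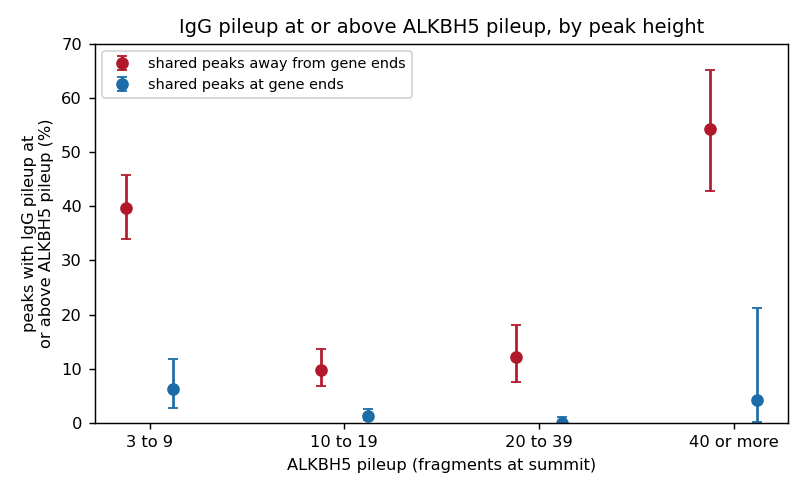
Percentage of shared peaks whose IgG pileup is at or above the ALKBH5 pileup, by class of ALKBH5 pileup, for shared peaks away from gene ends (red) and at gene ends (blue), with 95% exact intervals as bars. The red points lie above the blue ones in every class, at 39.8 against 6.15% in the lowest and 54.2 against 4.17% in the highest.

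Outside the mitochondrial genome, the tallest signal of the IgG library fell almost wholly among these regions. The 5 IgG peaks listed on the mitochondrial genome were left out of this count. Of the 39 other IgG peaks with a pileup over 100, 38 were paired with one of the 847. Their IgG pileups ran from 102 to 2857 with a median of 225. The paired ALKBH5 pileups ran from 43 to 213 with a median of 79.5. IgG was the taller in all but 1, which the choice by IgG pileup favours and which is given as a description. By position, 13 of the 38 lay beyond the last protein-coding gene of a chromosome, 2 before the first, 13 between genes, 8 inside protein-coding genes and 2 inside other genes. The remaining IgG peak, on chromosome 3 at 159939318 to 159939781 by the ALKBH5 coordinates, lay 903 bp from an end of Wls, just short of the 1 kb limit. It had pileups of 94 in ALKBH5 and 571 in IgG and folds of 24.9 and 44.1. This region was also the last listed peak of chromosome 3 in both lists. No ALKBH5 peak without an IgG peak, again outside the mitochondrial genome, had a pileup above 72.

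Many of the tall regions were the last peak of their chromosome. On 13 chromosomes the highest-coordinate peak of both lists was the same region, lay beyond the last protein-coding gene and was among the 847. On the 12 of the 13 with an IgG pileup over 100 the IgG pileup was 198 to 2857, the ALKBH5 pileup 60 to 197, the IgG fold 33.4 to 43.96 and the ALKBH5 fold 17.5 to 24.2. On chromosome 7 (145340851 to 145341540) 192 fragments were stacked in ALKBH5 and 2857 in IgG, and on chromosome 14 (124801484 to 124802326) 197 and 2665. On chromosome 2 (182012604 to 182013311) the pileups were 156 and 1302, and on chromosome 12 (120028562 to 120029118) 136 and 1171. IgG exceeded ALKBH5 on all 12, which were picked out by their high IgG pileup. On the remaining chromosome, Y, the order was the other way, with 16 in ALKBH5 and 10 in IgG. The ends of mouse chromosomes carry telomeric repeats, as background. Whether these peaks lie in repeated sequence was not examined, since no genome sequence was used here.

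**Figure D4:**
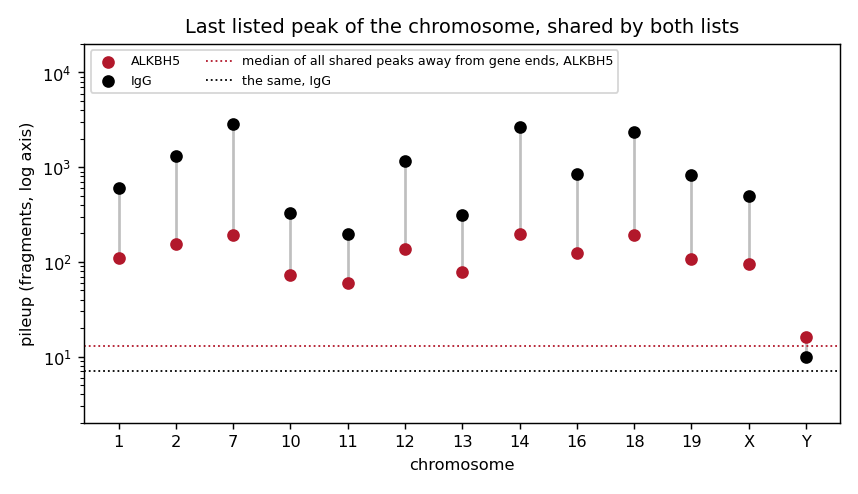
Pileup (log axis) in the ALKBH5 list (red) and the IgG list (black) at the last listed peak of 13 chromosomes, with dotted lines at the medians of all 847 regions, 13 and 7 fragments. On these chromosomes both lists end with the same region and it is among the 847. IgG lies above ALKBH5 on every chromosome shown except Y.

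Tall regions were split into 2 sets by IgG fold. In 29 of the 38 the IgG fold was over 25 (28.4 to 43.96), the median ALKBH5 width was 512 bp and summits lay a median of 34 bp apart. The local background implied by fold and pileup had a median of 2.42 fragments in ALKBH5 and 5.60 in IgG, where all 847 had 0.90 and 0.273. This background is computed from the fold that made the split, and it can include the peak's own fragments. Its values are a description and do not separate the surrounding signal from the peak itself. Besides the chromosome ends, these stood on chromosome 12 at 93576885 to 93577327, 682127 bp from the nearest protein-coding gene end (pileups 80 and 225, folds 24.3 and 39.5), and on chromosome 8 at 83756637 to 83757086 (84 and 519, 23.2 and 43.3). Others lay inside genes, in Flt1, which encodes a VEGF receptor (47 and 225, folds 20.2 and 38.9), Ttc21b, a gene of ciliary transport (58 and 206, 21.4 and 38.9), and Lama1, a laminin chain gene (49 and 199, 19.8 and 38.6). In the remaining 9 the IgG fold was 5.06 to 19.7 and the median implied background 21.7 fragments in ALKBH5 and 10.1 in IgG. They include 3 neighbouring peaks on chromosome 2 between 98662313 and 98667370, 1030828 bp or more from any protein-coding gene end, with ALKBH5 pileups of 120, 86 and 213 and IgG pileups of 225, 184 and 653.

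The start of chromosome 9 held the largest run. Between 3000197 and 3035339, before the first protein-coding gene, 13 of the 847 followed each other with ALKBH5 pileups of 48 to 129 (median 76) and IgG pileups of 31 to 279 (median 63). Folds were low for such heights, at most 5.15 in ALKBH5 and 2.99 to 17.5 in IgG, and the median implied background was 25.8 and 11.7 fragments. IgG reached the ALKBH5 pileup in 2 of the 13. As background, this stretch and the one on chromosome 2 are known as satellite repeat sequence with excess signal in many assays. Repeated sequence was not examined here. In all, 57 of the 847 (6.73%) had another within 10 kb, in 22 groups, of which 19 were pairs, 2 held 3 and the one on chromosome 9 held 13. The share was 2.55% among peaks with an ALKBH5 fold of 5 or more, and 14.8% with neighbours counted within 50 kb.

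Genes of small structured RNAs were a further kind. The 18 peaks there had a median pileup of 30.5 in ALKBH5 (12 to 56) and 11.5 in IgG (4 to 20), a median ratio of 0.373, and IgG reached ALKBH5 in none of them, which allows a share of up to 18.5%. By fold IgG was the higher in 8 of the 18 (44.4%). Their share of the 847, 2.13% (1.26 to 3.34), stood beside 1.44% of all ALKBH5 peaks and 2.03% (1.24 to 3.12) of shared peaks at gene ends. All 5 annotated U3 genes carried one. U3 is a small nucleolar RNA that guides the processing of ribosomal RNA. Rnu3b1, Rnu3b3, Rnu3b4 and Rnu3b2 lie inside Tex14 on chromosome 11 and had ALKBH5 pileups of 41, 38, 45 and 42, and IgG pileups of 13, 14, 12 and 10. Their ALKBH5 folds were 8.57, 5.52, 8.88 and 8.17, and their IgG folds 7.70, 6.64, 7.88 and 5.66. Rnu3a on chromosome 10 had 16 and 11 fragments (4.05 and 6.84). The ALKBH5 pileups of the 4 Tex14 copies lay above every IgG pileup of the 5 genes, but by fold the lists overlapped, and at Rnu3b3 and Rnu3a the IgG fold was the higher. The copies of a small RNA are near-identical, so the placement of reads among them is uncertain.

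Other small RNA genes included a U2 spliceosomal RNA, 5S ribosomal RNA and transfer RNAs. The peak at Rnu2-10, a U2 gene, was 2773 bp wide, with pileups of 36 and 16 and folds of 3.94 and 5.17. In the 5S cluster of chromosome 8, n-R5s100 had 56 and 15 fragments (4.78 and 4.44) and n-R5s110 38 and 17 (2.13 and 3.32), at implied ALKBH5 backgrounds of 10.9 and 17.3 fragments. They are 2 of 51 annotated n-R5s genes, of which 15 met any ALKBH5 peak. Of 408 tRNA genes 3 met one of the 847, against 70 for any ALKBH5 peak, namely n-TQttg6 (13 and 6 fragments), n-TCgca52 (14 and 4) and n-THgtg4 (17 and 6). The peaks at the snoRNA genes Snord49b (17 and 7) and Snord104 (12 and 5) also met the start window of a long noncoding RNA gene.

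The remaining peaks inside genes were mostly low. The 309 inside a protein-coding gene with none of the features above had a median pileup of 12 in ALKBH5 and 7 in IgG, the 293 between genes 12 and 7, and the 70 inside other genes 12 and 7.5. Start windows are not listed for chromosome 18, so its 36 peaks were sorted without them. In all, 398 protein-coding genes held a summit. Those with the strongest ALKBH5 excess over IgG by fold included Rbms1, which encodes an RNA-binding protein (19 and 3 fragments, folds 10.2 and 3.42), Cbfa2t3, a transcriptional corepressor gene (17 and 3, 10.5 and 3.55), and a region between genes 28146 bp from Serpina3n, a secreted protease inhibitor gene (36 and 7, 17.5 and 6.98). The opposite order was found in Cbfb, which encodes the partner subunit of RUNX factors (4 and 44 fragments, folds 4.03 and 21.1), between genes 8466 bp from Medag (4 and 41, 4.03 and 20.7) and in Slc9a2, a sodium-proton exchanger gene (3 and 16 fragments). These are the ends of a ranking and are a description. A peak of few fragments cannot reach a high fold, which limits the folds at the counts of 3 and 4 given here.

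Of the genes on the pathway and cell type lists, 11 had one of the regions inside them or within 10 kb. A protein-coding gene had one of the 847 inside it or within 10 kb in 630 of 21887 cases (2.88%), and long genes can hold one more readily. In the m6A list it was 2 of 16 genes, in the glucagon and gluconeogenesis list 2 of 19, in the growth factor and mTORC1 list 1 of 18, in the lipid list 2 of 22 and in the AP-1 and stress list 3 of 23. These shares ran from 5.56% to 13.0% and rest on 1 to 3 genes each. At Fto, the gene of an RNA m6A demethylase related to ALKBH5, a peak deep in the gene had 11 fragments in ALKBH5 and 10 in IgG (folds 6.98 and 8.37). The peak near Mettl16, which encodes an m6A methyltransferase, lay inside its neighbour Mnt (35 and 15, 5.66 and 8.32). Pde4b and Pde4d encode phosphodiesterases that break down cAMP. Pde4b held a peak with 20 fragments in ALKBH5 and 44 in IgG (10.6 and 23.1), and Pde4d one with 10 and 6 (5.85 and 5.99). IgG thus had the higher fold at Fto, at the Mettl16 neighbour and at both phosphodiesterase genes.

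In the lipid list, Insig2, which encodes a retention protein of the sterol sensing pathway, had 13 and 4 fragments (8.14 and 4.36) at an internal start 4984 bp inside the gene, and Acacb, the gene of mitochondrial acetyl-CoA carboxylase, 6 and 4 (4.93 and 4.53) within the gene. Cdkn1a, the gene of the cell cycle inhibitor p21, had 23 and 14 (6.67 and 9.32) at an internal start, whose window is printed above. Jund, an AP-1 gene, held a peak 1083 bp from its nearest end (31 and 15, 5.63 and 8.55), and the peak by Ier2, an immediate early gene, lay between genes (16 and 8, 4.11 and 5.38). The peak within 10 kb of Erbb2 stood at the start of its neighbour Mien1 (12 and 5, 7.93 and 5.23). At Insig2 and Mien1 the ALKBH5 fold was the higher, at Cdkn1a, Jund and Ier2 the IgG fold. Of 19 matched hepatocyte genes none had one of the 847, in a list too short to set against the 2.88% of all protein-coding genes. Of 15 genes of other liver cells 1 did, Col1a1, a collagen gene (10 and 5 fragments, folds 5.24 and 4.79). Peaks of 2 DNA libraries do not measure expression, so the labelled cell type was not checked in this way.

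In distance the regions ranged from 1004 to 1140730 bp from the nearest protein-coding gene end, with a median of 16500 bp (14720 to 19604). Of the 847, 81 (9.56%) lay at up to 2 kb and 126 (14.9%) beyond 100 kb, where ALKBH5 peaks away from gene ends without an IgG peak had 9.12% and 13.2%. The 5 regions just inside the limit lay 1004 to 1034 bp from a gene end and had ALKBH5 folds of 4.05 to 8.49 and IgG folds of 4.56 to 12.4. The 5 shared peaks just outside it lay 974 to 999 bp away, with folds of 5.73 to 10.0 and 3.42 to 6.43. By chromosome, the share of peaks away from gene ends that were shared ran from 10.7% on chromosomes 6 and 4 to 20.9% (16.7 to 25.6, 71 of 340) on chromosome 5, and was 16.8% (12.4 to 22.0) on chromosome 9.

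**Figure D5:**
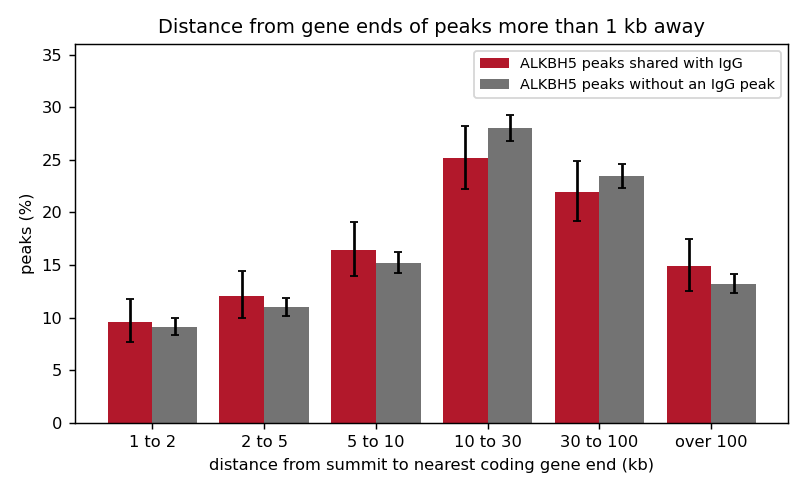
Percentage of ALKBH5 peaks more than 1 kb from protein-coding gene ends in 6 classes of distance, for the 847 shared with IgG (red) and the 5441 without an IgG peak (grey), with 95% exact intervals as bars. The intervals of both sets overlap in every class, from 9.56 and 9.12% at up to 2 kb to 14.9 and 13.2% beyond 100 kb.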

How the data were processed

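Peaks were listed for 1 ALKBH5-FLAG and 1 IgG library, grouped by sample title. Bowtie2 2.2.9, SAMtools 1.3.1, MACS2, R 3.4.1 and the build GRCm38 (mm10) are named per the submitters' processing notes. No setting is given in the sources used here, nor the role of the IgG library in peak calling. The deposited pileup is a coverage signal, the fragments stacked at a summit. The fold is the authors' ratio between pileup and local background. The columns of −log10 p-values and −log10 q-values, as deposited, have lost their headers and were read by place in the MACS2 layout. Read totals are not given, so the depth is unknown. The lowest implied local background among the 847 was 0.129 fragments in ALKBH5 and 0.0420 in IgG. The libraries may thus differ in depth, which was not tested.

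Each ALKBH5 peak was paired with the IgG peak sharing most bases. The local background was computed as pileup plus 1, over fold, minus 1. Gene ends, biotypes and start windows came from RefSeq tables of GRCm38.p6, which give no start windows for chromosome 18. Of the listed symbols, all but 1 hepatocyte symbol matched. Shares have 95% exact (Clopper-Pearson) intervals and medians order-statistic ones (scipy 1.17.1), which cover counting error only. With 1 library per group no test was made. The overlap code was tested on simulated data. The regions named by rule were the extremes in fold, ratio, width and distance, those at the 1 kb limit and those at list genes. The regions, kinds and lists were chosen with earlier results of these data known. No list of excess-signal regions was used here.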

Additional observations from a re-analysis of the deposited data

How the results depend on the processing

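Across 9 alternatives, 67 values were recomputed, of which 41 stayed within the interval of the main value, or within 1.5 times for a count. With an IgG −log10 q of 5 or more, 435 regions were left of 847, 42.5% of them inside protein-coding genes. Their median ALKBH5 fold was 7.47, the median pileup 17, the summit distance 82 bp, and 9.89% had a neighbour within 10 kb. The IgG fold was then higher in 73.3%, and the median log2 ratio of IgG to ALKBH5 fold turned from -0.08 to 0.34. It also turned, to 0.11, when 50% of each peak had to be shared, which left 451 regions. Of these 44.3% were inside genes, the median fold was 7.14, the width 442 bp, the summit distance 73 bp and IgG was higher in 56.5%. The sign of this ratio depends on both rules. The cause was not tested for the overlap rule. The stricter IgG list removes weak IgG peaks by its construction. With an ALKBH5 −log10 q of 5 or more the median fold was 7.59, the pileup 17, the width 551.5 bp, the share with the higher IgG fold 40.3% and the log2 ratio -0.15. At an ALKBH5 fold of 5 or more these were 7.27 for the fold, 38.2% and -0.17, and 2.55% had a neighbour within 10 kb. At 3 kb from gene ends 44.4% were inside genes. Within 50 kb 14.8% had a neighbour. No paired analysis was possible because each group has 1 library. The median IgG peak here stacked 7 fragments, and the depth is unknown.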

Other observations

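The widest of the 847 regions, 4364 bp on chromosome 1 from 24611718 to 24616081, lay over the pseudogenes Gm10222 and Gm10925, 27339 bp from the nearest protein-coding gene end. It had pileups of 144 in ALKBH5 and 75 in IgG, low folds of 3.06 and 3.84, and the highest implied local background of the 847 in ALKBH5, 46.5 fragments. This stretch is known as a nuclear copy of mitochondrial DNA, and the lists also hold peaks on the mitochondrial genome itself, 6 for ALKBH5 and 5 for IgG, which are outside the regions described. The part of mitochondrial reads in this region was not tested.

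Shared peaks lay over pseudogenes at Pisd-ps1 on chromosome 11 (51 and 24 fragments, folds 10.2 and 12.2) and at Pisd-ps2 on chromosome 17 (27 and 9, 5.88 and 6.06). Both are pseudogenes of the phosphatidylserine decarboxylase gene. At the pseudogene Gm18723 on chromosome 16 the ALKBH5 fold was 13.5 and the IgG fold 9.09 (22 and 10 fragments).

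In Sik3, which encodes a salt-inducible kinase, 2 neighbouring ALKBH5 peaks with 41 and 46 fragments were paired with the same IgG peak of 74 fragments, so the 847 regions stand for 846 different IgG peaks.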
